A study of Mus musculus with 8 samples.

Results

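The 10 genes described here encode UNC93B1, the 7 Toll-like receptors (TLRs) that it carries to the endosome in the mouse, and the chaperone pair through which most TLRs fold. They were chosen by gene symbol, with earlier results of these data known, as 10 of the 26939 genes counted in tumor-associated macrophages (TAMs). The TAMs came from tumors of the EO771 mouse breast cancer line, taken at day 21 from female mice aged 8 to 14 weeks. Live cells positive for CD45, CD11b and F4/80 and negative for Gr-1 were sorted, and their poly-A mRNA was sequenced in bulk. There were 4 groups of 2 libraries: WT control, WT αMARCO, Unc93b1 3d/3d control and Unc93b1 3d/3d αMARCO. αMARCO is the rat IgG1 clone ED31 against the scavenger receptor MARCO, given intravenously at 100 µg on days 3, 6, 9 and 12 after the tumor cells. The control mice are called untreated in the sample labels and PBS in the library names, while the protocol names an isotype antibody (rat IgG1 clone TNP6A7), so what they received is not settled here. WT mice were C57BL/6J from a breeder and Unc93b1 3d/3d mice came from another laboratory, and the sources used here do not state that they were littermates. The genotype label of the second Unc93b1 3d/3d control library reads 3d/4d, while its title reads 3d/3d. Each control sample was pooled from the TAMs of 3 mice. The 3d allele is carried in the germline of the animals and not only in their macrophages.

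UNC93B1 is a membrane protein with multiple membrane spans that binds nucleic acid-sensing TLRs in the endoplasmic reticulum (ER) and accompanies them to endosomes and lysosomes. There, cathepsins and other proteases cut the receptor ectodomains, and the receptors bind nucleic acids that nucleases have trimmed. The ER chaperone gp96, encoded by Hsp90b1, folds most TLRs together with its co-chaperone PRAT4A, encoded by Cnpy3. The 3d allele is a missense change in Unc93b1 that leaves the protein unable to bind these receptors, so the receptors stay in the ER and do not signal. Since the allele changes an amino acid and not the presence of the transcript, the Unc93b1 count does not check the genotype of a library. In macrophages these receptors detect microbial and host nucleic acids from engulfed material: TLR3 binds double-stranded RNA, TLR7 and TLR8 bind single-stranded RNA and its breakdown products, TLR9 binds unmethylated CpG DNA and TLR13 binds bacterial ribosomal RNA. TLR11 and TLR12 recognise the profilin of apicomplexan parasites.

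The upstream sequence of Hsp90b1 is shown first because its known control element recurs beside the results on genes of ER folding below. In the RefSeq promoter table (build GRCm38.p6), the 250 bases before the annotated start of Hsp90b1, at chr10:86705445-86705694 on the minus strand, held 2 copies of the ER stress element, CCAAT and CCACG with any 9 bases between them, searched on both strands and shown in capitals.
Hsp90b1: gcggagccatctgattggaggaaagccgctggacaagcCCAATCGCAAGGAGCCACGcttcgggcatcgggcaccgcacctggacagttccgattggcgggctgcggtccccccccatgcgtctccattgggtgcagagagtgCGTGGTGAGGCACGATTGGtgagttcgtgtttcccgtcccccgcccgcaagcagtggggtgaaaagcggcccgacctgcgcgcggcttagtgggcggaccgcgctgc
The element was present in 37 of 32851 promoter windows of that length, or 0.113%. The table held a window for 8 of the 10 genes, which leaves Unc93b1 and Tlr7, and in the other 7 windows the element was not found. The window of Tlr8, the receptor whose level varied most over all 8 libraries, is shown beside it (chrX:167264330-167264579, minus strand), with its only match in capitals, the letters TTGCNNAA of a C/EBP site on either strand.
Tlr8: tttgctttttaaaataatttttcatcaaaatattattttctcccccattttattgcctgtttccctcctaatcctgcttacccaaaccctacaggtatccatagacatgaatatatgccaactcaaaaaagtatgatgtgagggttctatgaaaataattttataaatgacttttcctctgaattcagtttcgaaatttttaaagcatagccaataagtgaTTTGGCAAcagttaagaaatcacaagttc
That match was present in 9.56% of all windows, and the windows of Tlr3 and Cnpy3 held it too.

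Library totals ranged from 15182618 to 26411936 counts, and a floor of 3 counts corresponds to 0.114 to 0.198 CPM (counts per library total, scaled with TMM factors). The second Unc93b1 3d/3d αMARCO library stood apart: its counts differed from its replicate with a chi-square of 116 per gene, against 8.27 to 13.3 for the other replicate pairs. It had 19700 genes with a count against 20849 to 23152 in the others, and 18.2% of its counts lay in its 50 most abundant genes against 14% to 15.1%. The log2 difference between the 2 libraries of its group correlated with log2 gene length at −0.46 across genes, against −0.11 to 0.10 in the other groups, and the part of length in the results was not tested beyond the corrections given. Most fold changes of the 10 genes that rest on this library are given with and without it, as are the calls of the gene lists for αMARCO in Unc93b1 3d/3d. Mitochondrial genes held 1.07% and 1.03% of counts in WT control, 2.37% and 2.74% in WT αMARCO, 1.25% and 1.18% in Unc93b1 3d/3d control and 2.06% and 1.39% in Unc93b1 3d/3d αMARCO, so both treated groups lay above their controls. The macrophage markers were high in all libraries, with a summed level of 11490 to 17863 CPM, while Siglech, a defining marker of plasmacytoid dendritic cells, which also express TLR7 and TLR9, was near the floor (0.105 to 0.942 CPM). The full list of that cell type holds genes that other cells express too, and summed to 430 to 723 CPM. Markers of B cells, which express these receptors as well, summed to 75.7 to 160 CPM in WT and to 26.5 to 52 CPM in Unc93b1 3d/3d. Other marker lists moved with the groups. T cell markers summed to 117 and 134 CPM in WT control against 6.23 to 21.9 CPM elsewhere, and mature dendritic cell markers to 1306 and 822 CPM against 282 to 475 CPM. Markers of conventional dendritic cells of type 1, a list that holds Tlr3, summed to 937 and 902 CPM in WT control against 559 to 717 CPM elsewhere. The highest genes of that list were Naaa (214 to 491 CPM) and Wdfy4 (114 to 259 CPM). Xcr1 (3.58 to 9.20 CPM) and Clec9a (0.617 to 2.16 CPM) of the same list were low in all libraries. Nonclassical monocyte markers were higher in all 4 WT libraries (1586 to 2067 CPM) than in all 4 Unc93b1 3d/3d libraries (649 to 1214 CPM). Fibroblast markers summed to 112 and 87.7 CPM in WT control, 39.7 and 26.6 CPM in WT αMARCO, 190.0 and 160 CPM in Unc93b1 3d/3d control and 172 and 80.4 CPM in Unc93b1 3d/3d αMARCO. In bulk samples, fewer cells of a type and less RNA per cell cannot be told apart, and the part of these cells and of the mitochondrial share in the results below was not tested.

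All 10 genes were expressed in every library and all passed the filter on low counts in every comparison. Per gene length, in RPKM (reads scaled to gene length and library total) computed from the counts, Unc93b1 stood far above its clients, with a median of 240.5 over the 8 libraries and a range of 190 to 340. Hsp90b1 followed at 95.1 (79.2 to 114) and Cnpy3 at 46.0 (37.7 to 57.2), and the ranges of these 3 genes did not overlap. Among the receptors, Tlr13 had the highest median RPKM, 36.0 (29.5 to 45.2), and Tlr9 (28.8), Tlr8 (24.1) and Tlr7 (19.1) came next. The ranges of Tlr13, Tlr9 and Tlr8 overlapped, as did those of Tlr9, Tlr8 and Tlr7. Within a library, Tlr13 had a higher RPKM than Tlr9 in all 8 libraries, while Tlr9, Tlr8 and Tlr7 changed places between libraries. Tlr3 had a median of 6.44 RPKM (5.47 to 8.15), Tlr12 of 3.00 (1.78 to 6.13) and Tlr11 of 0.849 (0.758 to 1.17), the last from 41 to 79 counts per library. Over all 8 libraries Tlr8 and Tlr9 varied most, with a highest CPM of 6.37 and 4.29 times their lowest, and the other 8 genes varied by 1.43 to 3.45 times. Without the library that stood apart, Tlr8 varied by 2.01 times, Tlr9 by 1.35 times, the least of the 10, and Tlr12 by 3.45 times, the most.

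**Figure D1:**
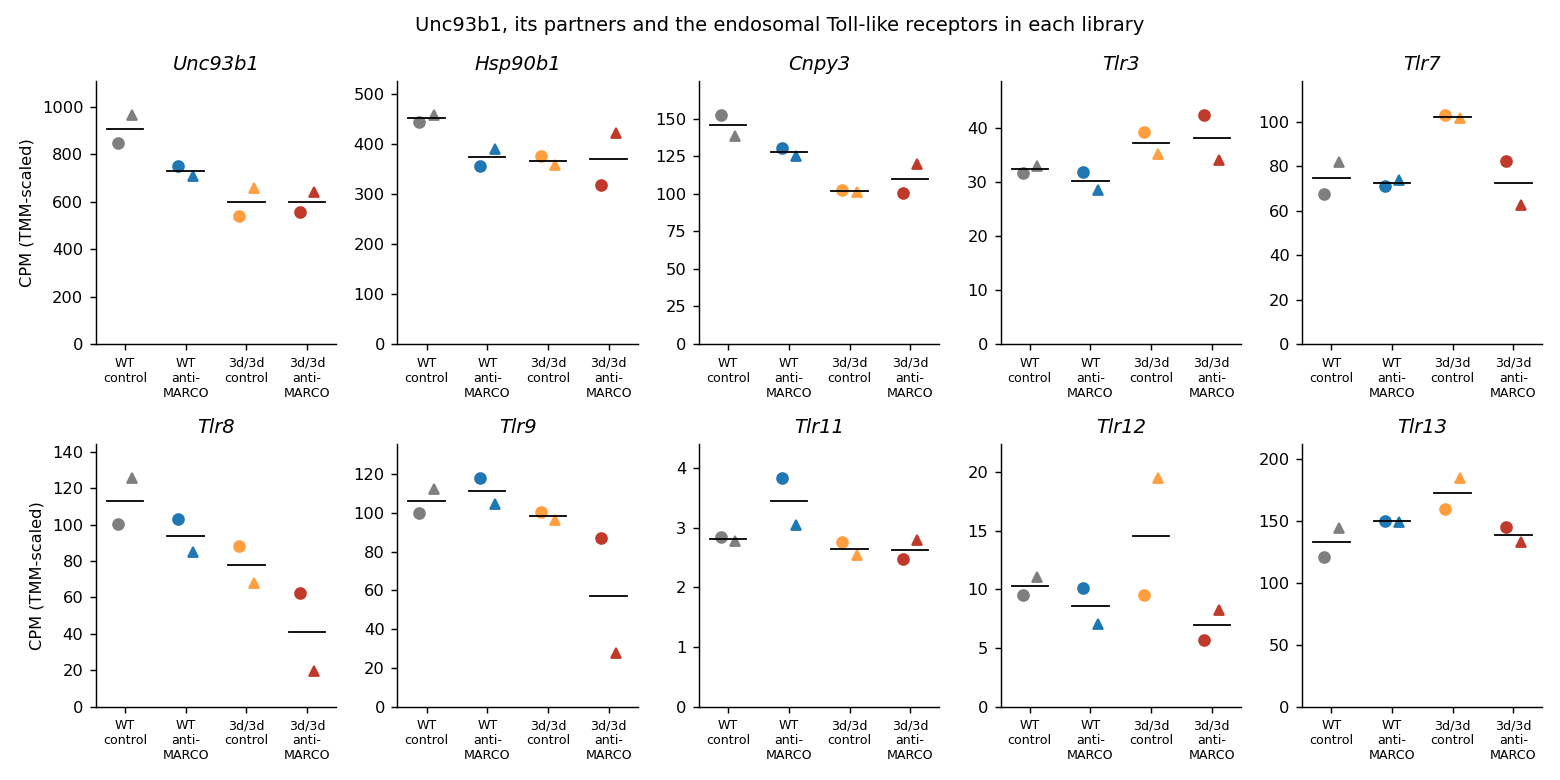
CPM of each of the 10 genes (1 panel each, y axis from 0) in the 4 groups on the x axis; circles are replicate 1, triangles replicate 2, and the black line is the mean of the 2. Unc93b1 and Cnpy3 lie lower, and Tlr3 higher, in the 4 Unc93b1 3d/3d libraries than in the 4 WT libraries, and the triangles of Tlr8 and Tlr9 in the last group lie far below the circles.

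The first comparison asked how control TAMs differ between genotypes, that is, whether cells whose endosomal TLRs cannot signal express the receptors and their carrier at the same level. Unc93b1 itself (ENSMUSG00000036908, GRCm38 chr19:3935186-3949340, plus strand) was at 848 and 965 CPM in WT control and at 539 and 660 CPM in Unc93b1 3d/3d control. Both WT libraries lay above both Unc93b1 3d/3d libraries. On the log2 scale Unc93b1 3d/3d lay −0.58 ± 0.12 (SE) from WT, and the adjusted p was 0.0125 in edgeR's quasi-likelihood test. A gene was called where the adjusted p did not exceed 0.05 and the log2 fold change was 0.5 or more in either direction. Unc93b1 was the only one of the 10 genes called by edgeR, where 13% of all tested genes were. DESeq2 called Tlr8 as well, 2 of 10 beside 11.6%. The edgeR call of Unc93b1 held with a gene length correction and with a replicate block. In a single model of all libraries without the one that stood apart, Unc93b1 3d/3d lay −0.61 ± 0.12 from WT. Unc93b1 transcripts are rich in G and C (57.3%), and with GC content and length corrected for, the log2 fold change was −0.49, short of the fold threshold. The call also ended without the second WT control library (−0.50, adjusted p 0.0235), without the first Unc93b1 3d/3d control library (−0.45, 0.0527) and in a single model of all 8 libraries (−0.60, 0.155).

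Neither chaperone gene was called. Cnpy3 (chr17:46735705-46752214, minus strand) was at 152 and 139 CPM in WT control and at 102 and 101 CPM in Unc93b1 3d/3d control, a gap wider than the spread within either group. Its log2 fold change was −0.50 ± 0.094 with an adjusted p of 0.00776, just short of the fold threshold at −0.4968. Hsp90b1 (chr10:86690209-86705509, minus strand) was at 445 and 458 CPM in WT control and at 376 and 359 CPM in Unc93b1 3d/3d control. Its log2 fold change was −0.28 ± 0.094, with an adjusted p of 0.0653.

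The receptors did not follow their carrier in a single direction. Tlr7 (chrX:167304929-167330558, minus strand) was at 67.4 and 82.2 CPM in WT control and at 103 and 102 CPM in Unc93b1 3d/3d control. Its log2 fold change was 0.47 ± 0.11 with an adjusted p of 0.0194. Tlr13 (chrX:106143204-106160493, plus strand) was at 121 and 144 CPM in WT control and at 160 and 184 CPM in Unc93b1 3d/3d control, a log2 fold change of 0.39 ± 0.12 with an adjusted p of 0.0455. Both receptors thus passed the adjusted p but not the fold threshold, and with gene length and GC content corrected for, the adjusted p of Tlr13 was 0.0505. Tlr8 (chrX:167242696-167264329, minus strand), the neighbour of Tlr7 at a distance of 40599 bases, was at 100 and 126 CPM in WT control and at 88.3 and 67.7 CPM in Unc93b1 3d/3d control. Its log2 fold change had the opposite sign, −0.52 ± 0.16, with an adjusted p of 0.0608. It was −0.56 with an adjusted p of 0.0355, past both thresholds, when corrected for gene length and GC content.

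Tlr9 (chr9:106222598-106226883, plus strand) was at 99.8 and 112 CPM in WT control and at 100 and 96.1 CPM in Unc93b1 3d/3d control. These values overlapped, and the log2 fold change was −0.09 ± 0.098. Tlr3 (chr8:45395665-45411080, minus strand) was at 31.8 and 33.0 CPM against 39.3 and 35.2 CPM, a log2 fold change of 0.22 ± 0.12 with an adjusted p of 0.227. Tlr12 (chr4:128615443-128618619, minus strand) was at 9.53 and 11 CPM against 9.54 and 19.5 CPM, so that the second Unc93b1 3d/3d library alone lay above both WT libraries. Tlr11 (chr14:50357914-50363663, plus strand) was at 2.84 and 2.77 CPM against 2.76 and 2.54 CPM, with a log2 fold change of −0.07 ± 0.32. In all, 4 of the 10 genes (Unc93b1, Cnpy3, Tlr7 and Tlr13) had an adjusted p of at most 0.05, beside 18.8% of all tested genes. The CPM values of 8 of the 10 did not overlap between the control groups, beside 63.1% of all tested genes. The summed markers of T cells and mature dendritic cells were higher in the same WT control libraries, as given above.

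**Figure D2:**
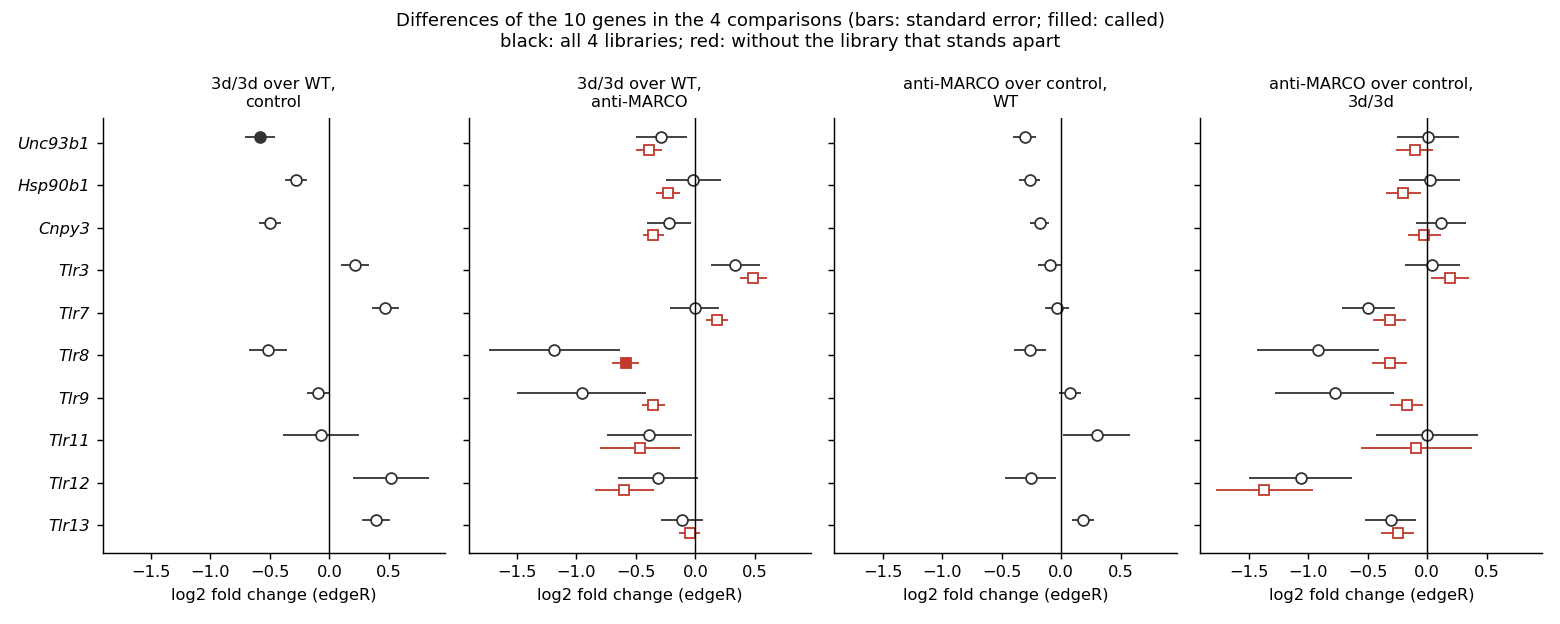
Log2 fold changes (x axis) of the 10 genes (y axis) in the 4 comparisons of 2 groups, from edgeR, with bars for the standard error; black circles use all 4 libraries of a comparison, red squares leave out the second Unc93b1 3d/3d αMARCO library, and filled symbols passed both thresholds. Unc93b1 in control is the only filled circle and Tlr8 under αMARCO the only filled square, and the error bars of Tlr8 and Tlr9 are several times shorter in red than in black.

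Under αMARCO the same comparison of genotypes rested on how the library that stood apart was treated. With it, 0 of the 10 genes were called by edgeR and 0 by DESeq2, 0 had an unadjusted p under 0.05, and 0% of all tested genes were called by edgeR. Of all tested genes, 1076 (6.84%) had an unadjusted p up to 0.05, and DESeq2 called 214 (1.36%). The CPM values of 7 of the 10 did not overlap, beside 44.3% of all tested genes. Tlr8 was at 103 and 84.7 CPM in WT αMARCO and at 62.6 and 19.7 CPM in Unc93b1 3d/3d αMARCO, a log2 fold change of −1.19 ± 0.55 at an adjusted p of 0.709. Tlr9 was at 118 and 104 CPM in WT αMARCO and at 87.1 and 27.5 CPM in Unc93b1 3d/3d αMARCO, with a log2 fold change of −0.96 ± 0.54. For both receptors the groups did not overlap, but the 2 Unc93b1 3d/3d libraries differed from each other by more than the first of them did from WT.

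Without that library, a single model of all other libraries gave Tlr8 −0.59 ± 0.20 and Tlr3 0.49 ± 0.13. The call and the adjusted p values given next, from the fit of this pair of groups alone, did not hold in that model. In the pair fit, the remaining Unc93b1 3d/3d αMARCO library was compared with 2 WT αMARCO libraries and was taken to vary like them. Tlr8 was then −0.58 ± 0.11 with an adjusted p of 0.00264, the only one of the 10 genes called, beside 7.45% of all tested genes. Another 4 genes had an adjusted p of at most 0.05 at smaller folds, giving 5 of 10 beside 11.3% of all tested genes. Tlr3 was higher in Unc93b1 3d/3d by 0.49 ± 0.11 (adjusted p 0.00637). Unc93b1 was lower by a log2 fold change of −0.39 ± 0.11 (0.0264), Cnpy3 by −0.35 ± 0.090 (0.0124) and Tlr9 by −0.35 ± 0.096 (0.0192). When instead the first Unc93b1 3d/3d αMARCO library was left out, Tlr8 and Tlr9 were called, beside 38.6% of all tested genes. Tlr7 stood at 70.9 and 73.9 CPM in WT αMARCO and at 82.2 and 62.5 CPM in Unc93b1 3d/3d αMARCO, so its groups overlapped, and its log2 fold change was −0.004 with all libraries and 0.18 without the library that stood apart. Tlr13 was at 150 and 149 CPM against 145 and 133 CPM, a log2 fold change of −0.11 ± 0.17, and of −0.05 ± 0.089 without that library.

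Across both treatments, 3 of the 10 genes had CPM values that did not overlap between the 4 WT and the 4 Unc93b1 3d/3d libraries, beside 7.23% of all tested genes. Unc93b1 ranged from 707 to 965 CPM in WT and from 539 to 660 CPM in Unc93b1 3d/3d. Cnpy3 ranged from 125 to 152 CPM in WT and from 100 to 120 CPM in Unc93b1 3d/3d. Tlr3 went the other way, with 28.5 to 33.0 CPM in WT and 34.1 to 42.4 CPM in Unc93b1 3d/3d. In the model of genotype with treatment as a second term over all 8 libraries, 0 of the 10 genes were called by edgeR and 0 by DESeq2, where edgeR called 1.87% and DESeq2 5.08% of all tested genes. An unadjusted p under 0.05 was found for 3 genes, beside 12.4% of all tested genes: Unc93b1 at −0.44 ± 0.14, Cnpy3 at −0.37 ± 0.12 and Tlr8 at −0.86 ± 0.32. Without the library that stood apart, 2 genes were called beside 6.26% of all tested genes, Unc93b1 at −0.52 ± 0.11 (adjusted p 0.0147) and Tlr8 at −0.57 ± 0.12 (adjusted p 0.0145). Cnpy3 was at −0.46 ± 0.082 with an adjusted p of 0.0056, Tlr3 at 0.31 ± 0.10 with 0.0804 and Tlr7 at 0.34 ± 0.095 with 0.0505.

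The second question was how the genes responded to αMARCO in each genotype. In WT, 0 of the 10 genes were called by edgeR and 0 by DESeq2, although edgeR called 20.7% and DESeq2 17.1% of all tested genes. The CPM values of 5 of the 10 did not overlap, beside 70.9% of all tested genes. Unc93b1 was at 848 and 965 CPM in control and at 749 and 707 CPM under αMARCO, without overlap. Its log2 fold change was −0.31 ± 0.098 with an adjusted p of 0.0348, and −0.18 with an adjusted p of 0.196 when corrected for gene length and GC content. Hsp90b1 was at 445 and 458 CPM in control and at 356 and 391 CPM under αMARCO, a log2 fold change of −0.27 ± 0.086 with an adjusted p of 0.0368. These were the 2 of 10 genes with an adjusted p of at most 0.05, beside 35.1% of all tested genes. The adjusted p of both was above 0.05 without either WT αMARCO library and without the second WT control library (0.0563 to 0.302). Cnpy3 also had an unadjusted p under 0.05, with a log2 fold change of −0.18 ± 0.080. Of the receptors, Tlr8 was at −0.26 ± 0.13, Tlr13 at 0.18 ± 0.094, Tlr11 at 0.30 ± 0.28 and Tlr12 at −0.26 ± 0.21. The smallest differences were those of Tlr9 (0.08 ± 0.092), Tlr3 (−0.09 ± 0.10) and Tlr7 (−0.04 ± 0.10). None of these 7 receptors had an adjusted p of at most 0.05.

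In Unc93b1 3d/3d TAMs, 0 of the 10 genes were called by edgeR, with or without the library that stood apart, and 0 by DESeq2 with all libraries. With all libraries, edgeR called 0% of all tested genes, DESeq2 called 60 (0.389%), and 744 (4.82%) had an unadjusted p up to 0.05. Without that library, edgeR called 3.41%. The CPM values of 5 of the 10 did not overlap with all libraries, beside 38.9% of all tested genes. Unc93b1 was at 539 and 660 CPM in control and at 557 and 641 CPM under αMARCO. Its log2 fold change was 0.01 ± 0.26, and −0.10 ± 0.16 without the library that stood apart. Tlr12 had the lowest unadjusted p, 0.0493, with 9.54 and 19.5 CPM in control and 5.64 and 8.23 CPM under αMARCO, a log2 fold change of −1.06 ± 0.43 (adjusted p 0.823). It was −0.45 without the second Unc93b1 3d/3d control library, which held the highest Tlr12 level, and −1.37 ± 0.41 without the library that stood apart. Tlr7 was at 103 and 102 CPM in control and at 82.2 and 62.5 CPM under αMARCO. Its log2 fold change was −0.50 ± 0.22, and −0.32 ± 0.14 without the library that stood apart. Tlr8 and Tlr9 were at −0.92 ± 0.51 and −0.78 ± 0.50 with all libraries and at −0.32 ± 0.15 and −0.17 ± 0.14 without the library that stood apart. When instead the first Unc93b1 3d/3d αMARCO library was left out, so that the library that stood apart was alone in its group, 3 genes were called beside 34.1% of all tested genes: Tlr7 (−0.70), Tlr8 (−1.97) and Tlr9 (−1.82).

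Whether αMARCO acted unequally in WT and Unc93b1 3d/3d was tested as an interaction over all 8 libraries, where 0 of the 10 genes were called by edgeR and 0 by DESeq2, and 0 had an unadjusted p under 0.05. Of all tested genes, edgeR called 0%, DESeq2 called 211 (1.27%), and 2549 (15.3%) had an unadjusted p up to 0.05. Without the library that stood apart, 0 of the 10 genes were called beside 3.45%. Tlr13 came closest to the threshold among the 10 genes. It was at 121 and 144 CPM in WT control and 150 and 149 CPM in WT αMARCO, and at 160 and 184 CPM in Unc93b1 3d/3d control and 145 and 133 CPM in Unc93b1 3d/3d αMARCO. Both treated WT libraries lay above both WT controls, and both treated Unc93b1 3d/3d libraries lay below their controls. The interaction was −0.48 ± 0.22 on the log2 scale, with an unadjusted p of 0.0559 and an adjusted p of 0.327. Without the first Unc93b1 3d/3d αMARCO library, which leaves the library that stood apart alone in its group, 4 genes were called beside 36.4% of all tested genes: Tlr13 (−0.55), Tlr7 (−0.67), Tlr8 (−1.71) and Tlr9 (−1.91).

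The proportions of the 7 receptors within a library do not depend on the scaling between libraries. In WT control, Tlr13 made up 26.3% ± 0.21 (SD, n = 2) of the summed receptor RPKM, Tlr8 25.5% ± 1.0, Tlr9 24.8% ± 0.91 and Tlr7 14.9% ± 0.31. In Unc93b1 3d/3d control, Tlr13 made up 32.4% ± 3.1, Tlr9 21.8% ± 0.81, Tlr7 19.3% ± 0.27 and Tlr8 16.8% ± 3.2. Tlr13, Tlr8 and Tlr9 thus had nearly equal shares in WT control, while Tlr13 led in Unc93b1 3d/3d control. In WT αMARCO, Tlr13 made up 30.0% ± 1.7, Tlr9 26.2% ± 0.70, Tlr8 21.4% ± 1.7 and Tlr7 14.6% ± 1.3. In the first Unc93b1 3d/3d αMARCO library the shares of Tlr13, Tlr9, Tlr7 and Tlr8 were 32.6%, 23.0%, 18.5% and 16%. In the second they were 45.7%, 11.1%, 21.5% and 7.72%. Tlr3 made up 4.68% to 5.84% in the other 6 libraries and 7.49% and 9.19% in these 2. The summed receptor RPKM was 109 to 133 in 7 libraries and 71.2 in the library that stood apart, so its larger Tlr13 share went with fewer Tlr8 and Tlr9 reads and not with more of Tlr13.

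**Figure D3:**
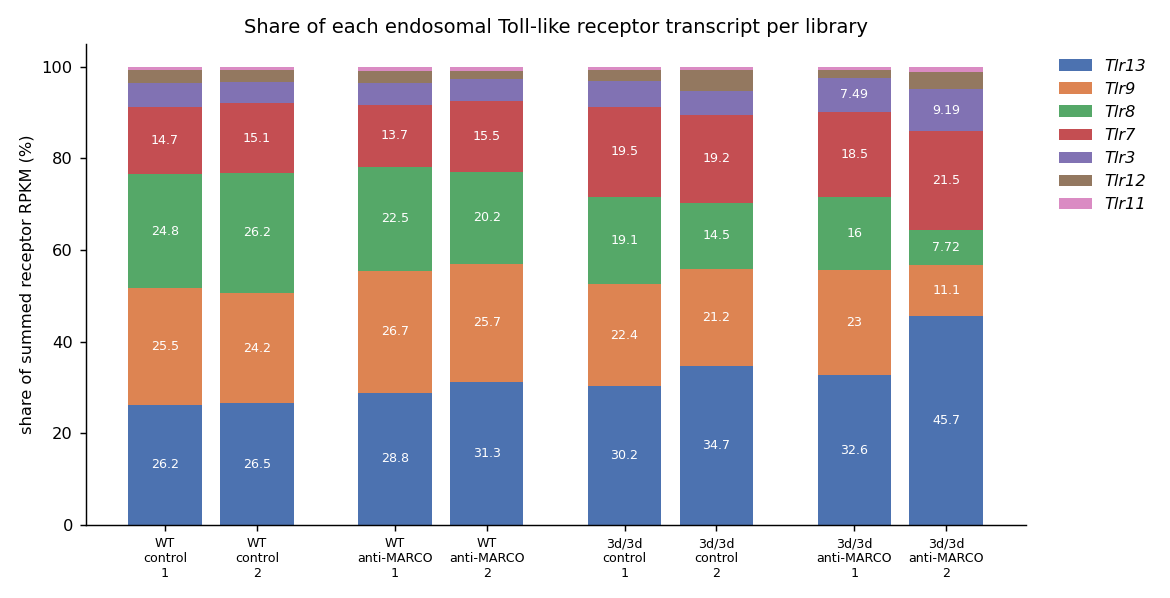
Share in percent (y axis) of each of the 7 endosomal receptors in their summed RPKM, as stacked bars for each of the 8 libraries (x axis, group and replicate), with shares above 6% printed in the bars. The Tlr8 segment shrinks from 20.2% to 26.2% in the WT libraries to 7.72% to 19.1% in the Unc93b1 3d/3d libraries, while the Tlr7 segment grows from 13.7% to 15.5% to 18.5% to 21.5%.

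Tlr7 and Tlr8 illustrate the shift, in a ratio that was singled out after the values were seen. Tlr7 had 0.672 and 0.655 reads per Tlr8 read in WT control and 0.690 and 0.873 in WT αMARCO. In Unc93b1 3d/3d it had 1.17 and 1.5 in control and 1.31 and 3.17 under αMARCO. Tlr8 reads were thus in the majority in all 4 WT libraries and Tlr7 reads in all 4 Unc93b1 3d/3d libraries, with or without the library that stood apart. The WT library nearest to Unc93b1 3d/3d had 46.6% Tlr7 among the reads of both genes (95% exact Clopper-Pearson interval 45.1% to 48.1%, counting error only), and the Unc93b1 3d/3d library nearest to WT had 53.9% (52.1% to 55.6%). Among the 45 ratios that can be formed from the 10 genes, 9 did not overlap between genotypes, or 20%, where 7.6% of the ratios of all pairs of tested genes with a count in every library did not overlap. These ratios share genes and are not independent: 5 of the 9 held Tlr3, and the others were Tlr7 over Tlr8, Tlr7 over Tlr9, Tlr8 over Tlr13 and Tlr9 over Tlr13. The ratio of Tlr8 to Tlr13 ranged from 0.568 to 0.869 in WT and from 0.148 to 0.553 in Unc93b1 3d/3d.

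**Figure D4:**
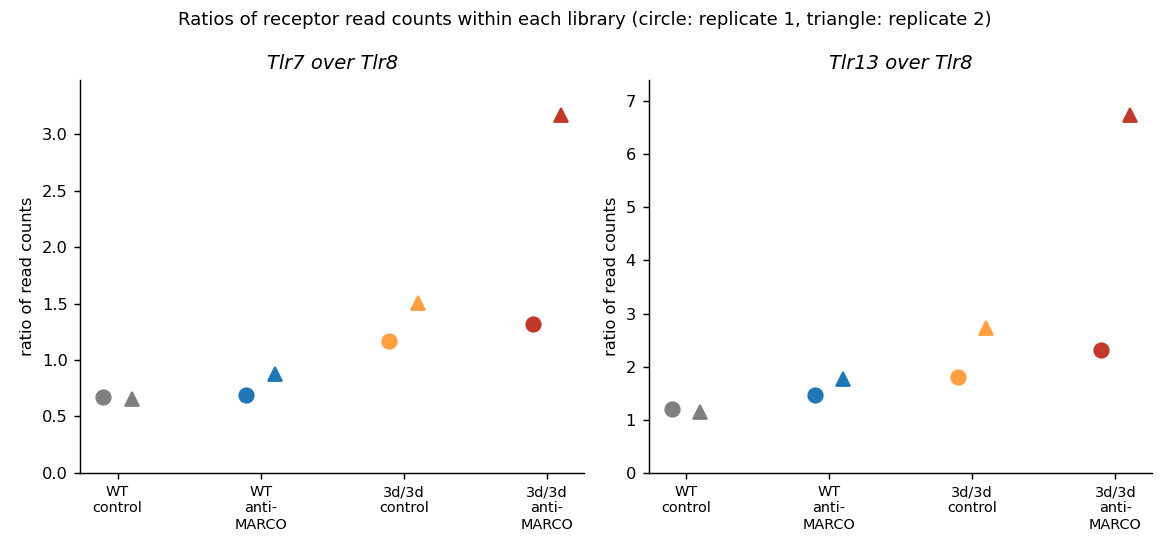
Ratio of Tlr7 to Tlr8 reads (left) and of Tlr13 to Tlr8 reads (right) on the y axis, from 0, in the 4 groups on the x axis; circles are replicate 1 and triangles replicate 2. The Tlr7 to Tlr8 ratio is at most 0.873 in the WT libraries and at least 1.17 in the Unc93b1 3d/3d libraries, and the triangle of the last group, at 3.17, is the library that stood apart.

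The genes around these receptors in the pathway were read from lists chosen by function. For αMARCO in WT, the proteases that process the receptors were called lower in 3 of 6 genes and higher in 0, beside 11.8% called lower and 8.91% called higher over all tested genes. Ctss, the endosomal cathepsin S, fell from 2802 and 2826 CPM to 1733 and 1859 CPM, a log2 fold change of −0.64 ± 0.10 (adjusted p 0.00139). Ctsk (−1.67 ± 0.22) and Ctsf (−1.99 ± 0.39), which encode cathepsins K and F, fell as well, from low levels of at most 19.5 CPM. The list's median log2 fold change was −0.37, against −0.01 over all tested genes. Of the 11 genes of nucleic acid degradation in lysosomes and the cytosol, 4 fell and 0 rose, with a median of −0.42. The 2 copies of ribonuclease T2, Rnaset2a and Rnaset2b, fell by 1.04 ± 0.092 and 1.01 ± 0.096 on the log2 scale. They are near-identical copies and their reads cannot be assigned with certainty. Rnaseh2c, a subunit of ribonuclease H2, fell by 0.86 ± 0.11. Acp5, which encodes tartrate-resistant acid phosphatase and not a nuclease, was at 354 and 422 CPM in control and at 221 and 244 CPM under αMARCO, −0.73 ± 0.10.

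For αMARCO in Unc93b1 3d/3d, edgeR called 0 genes of these lists and of all the lists below with all libraries, where the median log2 fold change was −0.42 for the proteases and −0.20 for nucleic acid degradation. Without the library that stood apart, 2 of 6 proteases were called lower, with a list median of −0.64, and 5 of 11 genes of nucleic acid degradation were called lower, with a median of −0.59. Over all tested genes 1.81% were then called lower and 1.59% higher. The genes named here were picked after their values were seen. Ctsk was at −1.41 ± 0.34 and Ctsb, which encodes cathepsin B, at −0.78 ± 0.19. Dnase1l3, an extracellular and endosomal deoxyribonuclease, was at −1.15 ± 0.25, and Pld3, a lysosomal exonuclease, at −0.82 ± 0.15. No protease and no gene of nucleic acid degradation was called higher in that fit.

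Acp5 differed far more between genotypes. It was at 354 and 422 CPM in WT control, 221 and 244 in WT αMARCO, 72.4 and 86.6 in Unc93b1 3d/3d control, and 50.3 and 77 in treated Unc93b1 3d/3d libraries. Genotypes did not overlap under either treatment. The log2 fold change in control was −2.27 ± 0.13 (adjusted p 1.03e-05) and over both treatments −2.08 ± 0.18 (adjusted p 0.000877), or −2.27 ± 0.11 (adjusted p 1.03e-06) without the library that stood apart. It was the only gene of the nucleic acid degradation list called between genotypes in control, 1 of 11 beside 6.58% called lower and 6.4% called higher over all tested genes. All 11 genes of that list had a negative log2 fold change, with a median of −0.28 against 0.00 over all tested genes. Under αMARCO, 5 of the 11 were below 0 with all libraries (median 0.20, 0 called) and 9 of 11 without the library that stood apart (median −0.18). In that fit 3 were called lower, beside 3.44% called lower and 4.02% higher over all tested genes. Over both treatments 7 of 11 were below 0 (median −0.12), and 11 of 11 without that library (median −0.22).

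Among the proteases, Ctsl, which encodes cathepsin L, was higher in Unc93b1 3d/3d control (967 and 1035 CPM) than in WT control (581 and 589 CPM), by 0.79 ± 0.099 on the log2 scale (adjusted p 0.00116), and Ctsk was lower by −0.96 ± 0.24 (adjusted p 0.0226). Of the 9 cell surface TLRs and their accessory proteins, only 1 was called for αMARCO in WT and for genotype in control. It was called higher in both, beside 8.91% and 6.4% of all tested genes. This was Tlr5, the receptor for bacterial flagellin. It was at 15.0 and 8.59 CPM in WT control, 30.3 and 25.3 CPM in WT αMARCO and 35.9 and 28.0 CPM in Unc93b1 3d/3d control, with log2 fold changes of 1.24 ± 0.25 for αMARCO in WT and 1.45 ± 0.27 for genotype in control. These 2 comparisons share the WT control libraries. For αMARCO in Unc93b1 3d/3d, Tlr2, a receptor for bacterial lipoproteins, and Cd14, a co-receptor of surface TLRs, were called higher by edgeR without the library that stood apart, and 2 of the 9 were called higher by DESeq2 with all libraries, beside 0.207% of all tested genes. Both were picked after their values were seen. Tlr2 was at 159 and 132 CPM in Unc93b1 3d/3d control and at 278 and 394 CPM under αMARCO, 0.93 ± 0.14 without that library, and Cd14 was at 604 and 496 CPM and at 930.2 and 2000.2 CPM, 0.76 ± 0.15. Both genes were highest in the library that stood apart. Between genotypes under αMARCO without that library, Tlr2 was higher in Unc93b1 3d/3d by 0.59 ± 0.091 and Tlr5 by 0.60 ± 0.12. With it, 0 of the 9 were called, beside 0% of all tested genes.

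In the list of trafficking and regulation, 25 of 26 genes were tested. For αMARCO in WT, 4 of these were called lower and 2 higher, beside the 11.8% and 8.91% of all tested genes. Those called lower were Cd63, a tetraspanin of late endosomes (−0.67 ± 0.096), the Cnpy3 relatives Cnpy4 (−0.62 ± 0.12) and Cnpy2 (−0.62 ± 0.12), and Lrba (−0.60 ± 0.17). The 2 called higher, named after their values were seen, were Slc29a3, a lysosomal nucleoside transporter (0.56 ± 0.084), and Pikfyve, a lipid kinase of endosomes (0.52 ± 0.094). Slc29a3 and Pikfyve were also the 2 called between genotypes in control, higher in Unc93b1 3d/3d by 0.63 ± 0.10 and 0.63 ± 0.11, where 6.4% of all tested genes were called higher. Those comparisons, too, share the WT controls. For αMARCO in Unc93b1 3d/3d without the library that stood apart, 1 of the 25 was called lower, Cd63 (−0.67 ± 0.15), and 0 of the downstream and of the cytosolic genes given next. Of the 20 adaptors, kinases and transcription factors downstream, 1 was called for αMARCO in WT, beside 8.91% of all tested genes called higher and 11.8% lower. This was Irak2. It rose from 83.8 and 88.2 CPM to 155 and 172 CPM, by 0.93 ± 0.083 (adjusted p 0.000117). Between genotypes in control, 2 of the 20 were called lower, beside 6.58% of all tested genes. Irak3, an inhibitory kinase relative, was lower in Unc93b1 3d/3d (18.5 and 16.6 CPM) than in WT (33.7 and 40.9 CPM), by −1.07 ± 0.14, and Nfkb1 was lower by −0.74 ± 0.11. Both were also called over both treatments, Irak3 at −0.96 ± 0.16 and Nfkb1 at −0.64 ± 0.12, beside 1.36% of all tested genes called lower. Without the library that stood apart, their log2 fold changes were −0.88 ± 0.13 and −0.64 ± 0.10. Of the 10 cytosolic nucleic acid sensors and partners, 1 was called for αMARCO in WT, beside 11.8% of all tested genes called lower. This was Tmem173, which encodes STING and fell by 0.54 ± 0.084. Between genotypes in control, 0 of the 10 were called.

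The list of ER folding, to which gp96 belongs by function, held 20 other genes: chaperones and disulfide isomerases, transcription factors of the ER stress response (Atf4, Xbp1 and Ddit3) and genes of ER-associated degradation such as Herpud1 and Sel1l. For αMARCO in WT, 6 of the 20 were called lower and 0 higher, beside 11.8% and 8.91% of all tested genes, with a median log2 fold change of −0.34. Those with the largest changes were Manf (−0.60 ± 0.098), Pdia3 (−0.59 ± 0.086), Sdf2l1 (−0.58 ± 0.093) and Pdia6 (−0.54 ± 0.083), which encode secreted or resident proteins of the ER, the second and last of them disulfide isomerases. Hspa5, which encodes the chaperone BiP, was at 1307 and 1373 CPM in control and at 841 and 998 CPM under αMARCO, −0.54 ± 0.11. Hsp90b1 itself, at −0.27, lay near this median and was not called. In Unc93b1 3d/3d, 0 of 20 were called in either fit, and the median was 0.03 with all libraries and −0.29 without the library that stood apart. Between genotypes in control, 3 of 20 were called lower in Unc93b1 3d/3d and 0 higher, beside 6.58% and 6.4% of all tested genes, with a median of −0.23: Herpud1 (−1.05 ± 0.11), Atf4 (−0.67 ± 0.092) and Manf (−0.52 ± 0.11). Of these 3, Manf alone encodes a protein of ER folding itself, while Herpud1 acts in ER-associated degradation and Atf4 is a transcription factor.

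Most of these calls were not kept in a single model of all 8 libraries. A single model of all libraries without the one that stood apart showed no such drop over all tested genes. The model of all 8 carries the spread of the library that stood apart into every comparison. In it, edgeR called 0.987% of all tested genes for αMARCO in WT and 2.19% for genotype in control. For αMARCO in WT, the calls fell from 3 to 1 for the proteases, from 4 to 0 for nucleic acid degradation, from 6 to 0 for trafficking and regulation, from 6 to 0 for ER folding and from 1 to 0 for both the surface TLRs and the cytosolic sensors, and the downstream list kept a count of 1. For genotype in control they fell from 2 to 0 for the proteases, from 2 to 0 for trafficking and regulation, from 3 to 1 for ER folding, from 2 to 1 for the downstream list and from 1 to 0 for the surface TLRs, and the nucleic acid degradation list kept a count of 1.

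**Figure D5:**
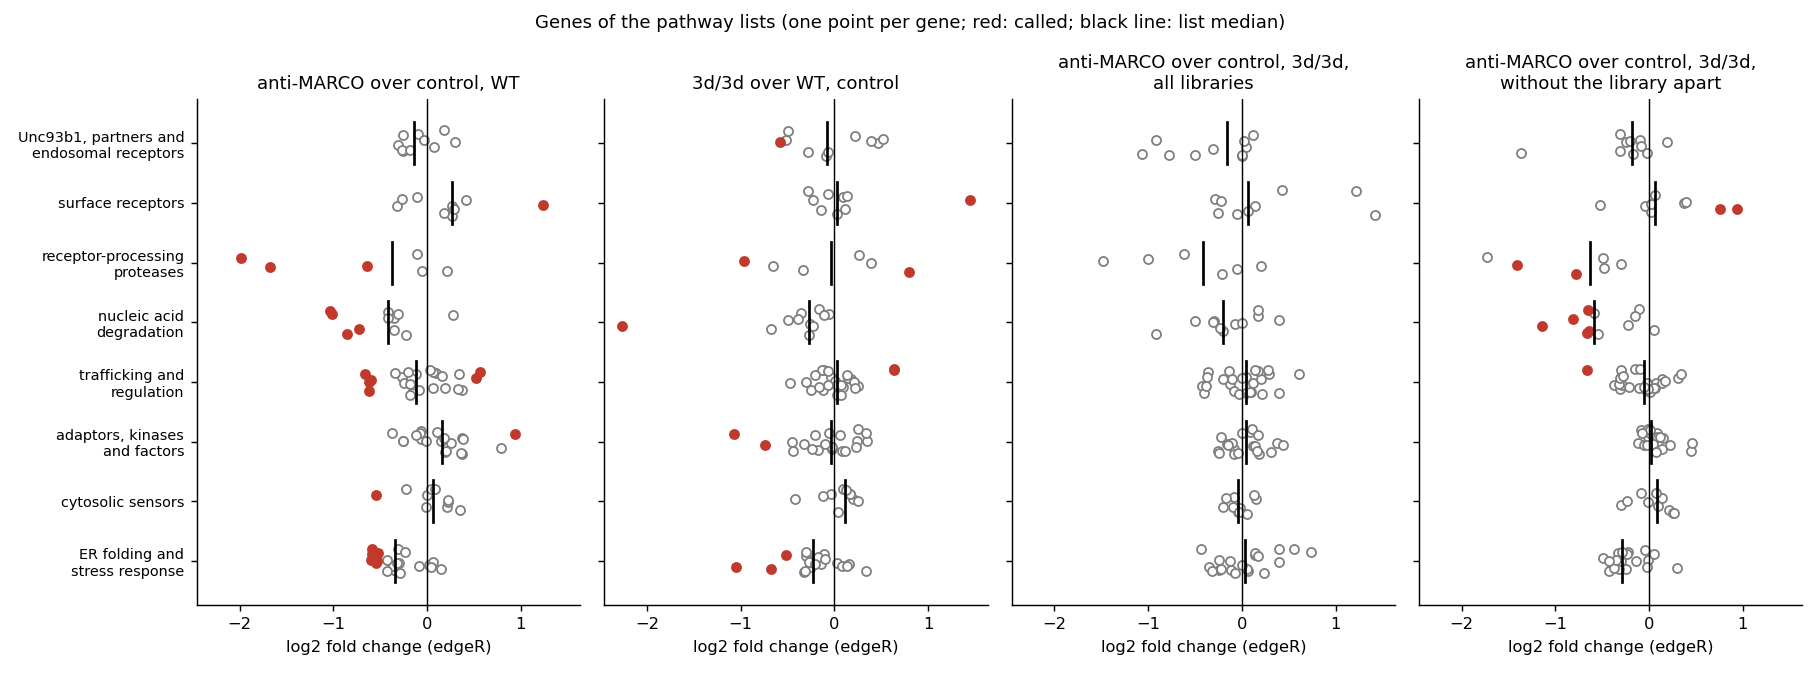
Log2 fold changes (x axis) of the genes of 8 lists (y axis) for αMARCO in WT, for genotype in control, and for αMARCO in Unc93b1 3d/3d with all libraries and without the library that stood apart; each point is a gene, red points passed both thresholds and black lines are list medians. Red points of the proteases and of nucleic acid degradation lie below 0 in the first panel and in the last, while the third panel holds no red point.

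The ER stress element of the Hsp90b1 window was found in 6 of the 18 genes of the ER folding list with a window in the RefSeq table, beside 0.113% of all windows. Of the genes called lower for αMARCO in WT it was found in Hspa5, Pdia6 and Creld2, which are shown because they were called where Hsp90b1 was not. Calr, Canx and Dnajc3 held it too and, like Hsp90b1, were not called. A link between the element and the fall under αMARCO was not tested. Hspa5 and Creld2 were picked after their values were seen. Each match is written in the direction of the element, with its fixed letters in capitals, and the first lies 212 bases and the second 107 bases before the start of Hsp90b1.
Hsp90b1, first copy: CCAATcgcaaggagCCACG
Hsp90b1, second copy: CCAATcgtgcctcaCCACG
Hspa5: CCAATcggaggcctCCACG
Pdia6: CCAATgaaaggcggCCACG
Creld2: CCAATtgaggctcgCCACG
These letters describe the windows only, and binding at them was not measured.

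Genes whose level across the 8 libraries was most like that of 3 of the genes were found by Pearson's r of log2 CPM among 8645 genes with a mean of at least 10 CPM. The libraries form 4 groups and are not independent points, so r is a description. Unc93b1 was most like Akr1b10 (r = 0.98), Dctn5 (0.98) and Ptpn6 (0.98), and these were at 0.98 to 1.0 without the library that stood apart. Tlr7 was most like Cd22 (0.99), Zbtb38 (0.95) and Mmp27 (0.94). Tlr9 was most like Dst, Chd3 and Dock2 (each above 0.99), which followed the low value in the library that stood apart and had 0.93, 0.92 and 0.81 without it.

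Read counting could blur a few of these values. The exons of Hsp90b1 overlap those of other annotated genes by at most 270 bases, and the overlapping genes held 0 to 192 counts against at least 5983 for Hsp90b1. A predicted gene shares 258 bases with an exon of Tlr3 on the other strand and held 0 counts. The overlapping gene of Cnpy3 shares no exon base with it, and the other 7 genes overlap none.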

How the data were processed

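Poly-A mRNA of sorted TAMs was primed with random hexamers and sequenced on a NovaSeq instrument. Per the labels and methods, the authors filtered reads with fastp, mapped them to GRCm38 (Hisat2 2.0.5) and took counts per gene from FeatureCounts 1.5.0. Strandedness and annotation release are not given in the sources used here. The authors deposited 3 tables with raw counts per gene, which carry no normalization, and with FPKM, the authors' values per gene length and library total (the methods name TPM). Deposited gene length is in bases. Normalized values and the authors' DESeq2 1.40.2 comparisons (fold changes, p-values, adjusted p-values) stand in the same tables and were not used.

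Joined on gene identifiers, the tables gave 26939 genes. 0 of 95230 repeated counts differed, and genes absent from a table were set to 0 counts there. Positions are those of the tables. CPM used TMM factors over all 8 libraries. Each comparison of 2 groups was fitted on its 4 libraries with edgeR 4.0.16 in R 4.3.3 (TMM, filterByExpr, robust quasi-likelihood test, Benjamini-Hochberg adjustment over all tested genes); the interaction and the model with treatment as a second term used all 8. A gene was called where its adjusted p did not exceed 0.05 and its log2 fold change was 0.5 or more in either direction. The fits were tested on simulated data. With 2 libraries a group, and for treated mice no statement of what a library holds, p-values measure the spread between these libraries.

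Alternatives were DESeq2 1.42.0, its size factors, other filters and fold thresholds, a gene length correction, all 8 libraries in a model, a replicate block, and each library left out. A correction for GC content and length (mgcv 1.9.3), also with the block, and a model of all libraries without the one that stood apart were added after seeing the data. The 10 genes and all lists were chosen with earlier results of these data known. Named genes are the 10, up to 4 called genes per list and comparison with the largest fold, defining markers, and the 3 genes most like Unc93b1, Tlr7 and Tlr9. Trex1 was not found by name. No table of protein sequences was used here.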

Additional observations from a re-analysis of the deposited data

Results flagged for a closer look

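Tlr13 is given here because its values moved in opposite directions, in every sample, under the same contrast. Both WT αMARCO libraries lay above both WT control libraries, while both Unc93b1 3d/3d αMARCO libraries lay below both Unc93b1 3d/3d control libraries. For the same reason the genotype difference was opposite in sign between control and αMARCO, with both Unc93b1 3d/3d libraries above WT in control and below WT under αMARCO. Both patterns are the same interaction, −0.48 ± 0.22 on the log2 scale, which missed the threshold in edgeR (unadjusted p 0.0559, adjusted p 0.327). It was −0.41 ± 0.17 with an adjusted p of 0.187 without the library that stood apart. Each group holds 2 libraries, and the difference was not shown by this test.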

How the results depend on the processing

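Of the log2 fold changes of the 10 genes, 805 values under alternatives kept their direction and side of the threshold, 26 came to pass it, 5 ceased to and 44 changed sign. The cause of these changes was not tested. The number of the 10 genes called for genotype in control was 1, beside 13% of all tested genes. It became 2 with DESeq2 (beside 11.6%), 3 with no filter on low counts (beside 2596 of 24779 tested genes) and 0 in a model of all 8 libraries (beside 2.19%). With no fold threshold it was 4 (beside 18.8%), and with a log2 fold threshold of 1 it was 0. In a model of all libraries without the one that stood apart, Unc93b1 was −0.61, Tlr8 −0.55, Cnpy3 −0.53, Tlr7 0.44 and Tlr13 0.36. A library left out leaves 1 library in a group. Unc93b1 was then −0.73 to −0.45, Cnpy3 −0.57 to −0.44, Tlr8 −0.73 to −0.33, Tlr7 0.32 to 0.61 and Tlr13 0.26 to 0.52. The fold threshold lay within each of these ranges. For αMARCO in WT the number called was 2 with no fold threshold, beside 35.1% of all tested genes. Outside genotype in control, the number called moved from 0 with a library left out only where it was an Unc93b1 3d/3d αMARCO library. Without the first of these, it moved for αMARCO in Unc93b1 3d/3d, for genotype under αMARCO and for the interaction. Without the second, the library that stood apart, it moved for genotype under αMARCO and for genotype over both treatments. Tlr7 for αMARCO in WT was 0.0043 with a length correction and −0.18 to 0.11 with a library left out. For αMARCO in Unc93b1 3d/3d, Unc93b1 was −0.013 with DESeq2 and −0.013 with its size factors, −0.025 with at least 10 counts, −0.0030 with a length correction, −0.038 with GC and length, −0.032 with the replicate block added, −0.0010 with all 8 libraries, and −0.11 in the model without the library that stood apart, where Hsp90b1 was −0.21 and Cnpy3 −0.030. Hsp90b1 was −0.014 with at least 10 counts, and Tlr11 was 3.2e-05 with no filter, 0.019 with GC and length and 0.017 with the block added. With a library left out these were −0.13 to 0.16 for Unc93b1, −0.20 to 0.21 for Hsp90b1, −0.023 to 0.25 for Cnpy3, −0.091 to 0.089 for Tlr11 and −0.11 to 0.19 for Tlr3. For genotype under αMARCO, Tlr7 was 0.0075 with a length correction, 0.050 with GC and length, 0.048 with the block added and 0.18 in the model without the library that stood apart, and −0.22 to 0.18 with a library left out. Hsp90b1 there was 0.011, 0.056 and 0.027 under the first 3 of these, and −0.23 to 0.17 with a library left out. With a library left out, Tlr9 for αMARCO in WT was −0.012 to 0.16, Tlr11 and Tlr12 for genotype in control −0.13 to 0.0011 and −0.082 to 0.93, Tlr3 in the interaction −0.026 to 0.30, and Tlr12 over both treatments −0.23 to 0.29. Over all genes, the counts called by edgeR and DESeq2 were 0 and 60 for αMARCO in Unc93b1 3d/3d, 0 and 214 for genotype under αMARCO, 0 and 211 for the interaction and 310 and 844 for genotype over both treatments, and with every library but the one that stood apart edgeR called 571, 1252, 612 and 1109. With that library alone in its group it called 5500, 6366, 6440 and 232. The 3236 called for αMARCO in WT and 2025 for genotype in control became 164 and 364 in a model of all 8 libraries, and the former was 1940 without the first WT αMARCO library. For genotype over both treatments the count was 89 to 1109 with a library left out. The GC and length correction and the model without the library that stood apart were chosen after seeing the data. Depth limits Tlr11 most, with 41 to 79 counts.

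Replicate numbers were not shown to pair the samples: deviations of same-numbered libraries correlated at −0.12 to 0.19 across genes over 6 pairs of groups, with 2 numbers each. With the replicate block, the count of the 10 genes called was 1 for genotype in control (Unc93b1) and 0 in the other 5 comparisons, as without it. Over all genes it gave 5 calls for αMARCO in Unc93b1 3d/3d and 97 for genotype under αMARCO, each 0 without it, and 207 in place of 310 for genotype over both treatments.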
